A study of Homo sapiens with 6 samples.

Results

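Ribosome biogenesis and nucleolar growth genes, a set of 40 genes often described as targets of the transcription factor MYC, were followed in A375 cells, an established human melanoma line. The set was a list of symbols, each matched through GENCODE to 1 of the 18318 gene rows of the count table, and all 40 were found and passed the filter on low counts. The study compared 3 libraries of cells transfected with the pcDNA3.1 vector backbone and 3 of cells transfected with the same plasmid carrying full-length wild type SLNCR, a long non-coding RNA listed as LINC00673. In both groups the plasmid held a CAG promoter and a puromycin resistance gene, and cells grew for 48 h in 2 µg/mL puromycin before RNA was taken. The libraries are numbered replicates of 1 cell line, and nothing in the labels says how the cultures were separated, so p-values measure the spread between these samples, which may be technical.

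Ribosome biogenesis starts in the nucleolus, where RNA polymerase I copies the ribosomal DNA into a long precursor RNA. Small nucleolar RNA-protein particles (snoRNPs) guide its chemical modification, and assembly factors, helicases and nucleases then cut and fold it into the small and large ribosomal subunits. MYC with its partner MAX binds E-box sequences near the start of many of these genes, and growing tumour cells, melanoma among them, depend on a steady supply of ribosomes, polyamines and nucleotides. In bulk RNA a lower level per cell and fewer cells that hold a transcript cannot be told apart.

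Libraries held between 9018886 and 10497547 counts in named genes. LINC00673 stood at 19.5, 21.4 and 21.1 CPM (counts scaled to a common library size, with TMM factors) with the empty vector and at 169.8, 247 and 227 with SLNCR, as the labels say. The labels give the cell type as epithelial. EPCAM, CDH1, KRT5, KRT14 and TP63 had a mean below 10 counts, and 6 of the 14 keratinocyte and epithelial markers had at least 10. Of 15 melanoma and melanocyte markers 13 were matched, and 11 of these had at least 10. The pigment genes PMEL and DCT lay below 10, TYR was not matched, and MLANA had 16, 15 and 12 counts with the empty vector and 14, 11 and 14 with SLNCR. Across the 14 keratinocyte and epithelial markers the summed level was 631 to 695 CPM with the empty vector and 513 to 568 with SLNCR, with KRT8 and KRT18 as its main part. KRT8, KRT18 and SFN fell by 0.31, 0.29 and 0.43 on the log2 scale, and KRT10, DSP and CLDN1 stood at -0.22, 0.058 and 0.12. Melanoma markers summed to 1698 to 1764 and 1613 to 1679.6 CPM, with AXL and MCAM as the most abundant. Of 9 fibroblast, 10 immune and 5 endothelial markers 3, 1 and 0 had at least 10 counts on average, the 1 being CD68. For the 11 matched small and nuclear RNAs read for RNA quality the sums were 31780 to 36827 and 31112 to 33400 CPM, with RN7SK as the most abundant. The median of these RNAs in SLNCR replicate 3 was -0.343 on the log2 scale relative to the empty vector mean, against -0.098 and 0.021 in SLNCR replicates 1 and 2. RN7SL2 and RN7SL1 had their lowest counts there, 9510 and 19832, and stood at -0.61 and -0.31 (edgeR adjusted p = 0.276 and 0.384). The part of these shifts in the results on the 40 genes was not tested.

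The fold changes are set beside the base composition of the transcripts, so the first coding bases of 4 genes are shown, from GENCODE release 29 transcripts (GRCh38). They are the risen genes NOP58 and DDX18 and, of the fallen genes, SRM and GRWD1, which are rich in G and C. Capitals mark the start codon.

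NOP58: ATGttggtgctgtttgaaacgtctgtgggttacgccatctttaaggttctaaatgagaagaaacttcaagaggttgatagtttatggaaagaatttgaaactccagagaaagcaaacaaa
DDX18: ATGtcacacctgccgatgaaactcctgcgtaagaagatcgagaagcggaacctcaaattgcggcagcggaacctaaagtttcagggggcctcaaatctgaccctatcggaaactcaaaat
SRM: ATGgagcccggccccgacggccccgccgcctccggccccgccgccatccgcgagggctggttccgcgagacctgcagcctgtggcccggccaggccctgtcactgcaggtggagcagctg
GRWD1: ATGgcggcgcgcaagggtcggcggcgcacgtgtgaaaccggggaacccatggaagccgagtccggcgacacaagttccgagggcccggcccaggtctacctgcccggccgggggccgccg

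Over these 120 bases the GC content was 36.7% in NOP58, 49.2% in DDX18, 77.5% in SRM and 74.2% in GRWD1. Over the whole coding sequence it was 39.7%, 41.8%, 61.9% and 64.3%, in the same order.

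The comparison of the transfections asked which of the 40 genes differ when SLNCR is overexpressed. Differences were small. NOP58 and DDX18 rose, and TCOF1, BOP1, GRWD1, RRP1B, SRM, PUS1 and TBRG4 fell, by at most 0.33 on the log2 scale. Thus 2 of 40 (5%) were higher and 7 (17.5%) lower with edgeR's quasi-likelihood test, at an adjusted p below 0.05, beside 8.84% and 7.67% of the 12797 genes tested (16.5% in either direction). The other 31 genes did not pass, and 13 of these had an unadjusted p below 0.05. Called or not, 22 of the 40 had one, beside 4455 of the 12797 genes tested. The 8.84% called higher and 7.67% called lower of all tested genes also stand beside the counts by role below, where groups are small. The median log2 fold change (SLNCR over empty vector) of the 40 was -0.11, and that of all tested genes -0.0097. The libraries of the 2 groups were fully apart for 22 of the 40 genes (55%) and for 38.9% of all tested genes. When SLNCR replicate 1 or either of empty vector replicates 1 and 2 was left out, 0 of the 40 genes passed, with 1 or 2 calls among all genes. Without empty vector replicate 3, 3 were higher and 9 lower, beside 7.74% and 6.74% of all genes. Without SLNCR replicate 2, 5 were higher and 13 lower, beside 13.4% and 12.8% of all genes. Without SLNCR replicate 3, 2 were higher and 3 lower, beside 6.19% and 5.45%.

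**Figure D1:**
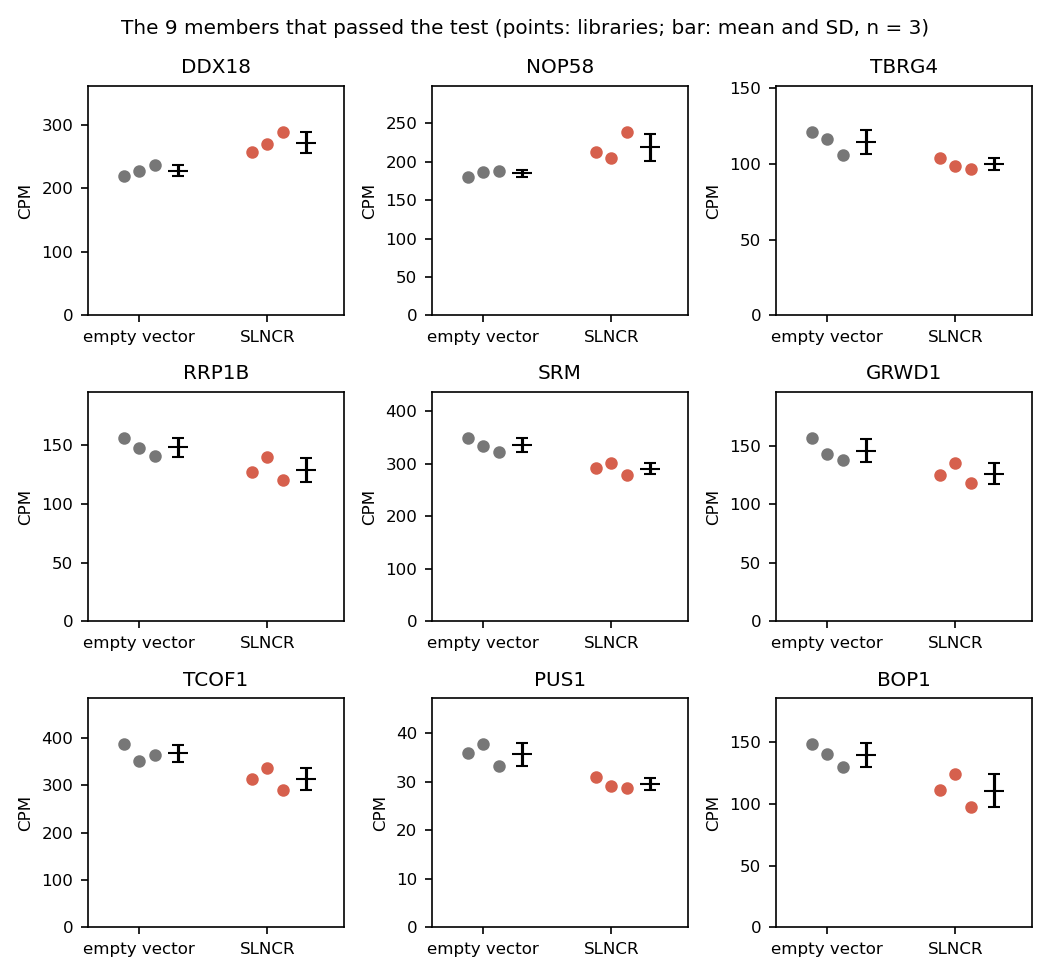
TMM-scaled CPM (y axis, from 0) of the 9 genes that passed, by group; points are libraries and the bar gives the mean and SD (n = 3). DDX18 and NOP58 are higher in each SLNCR library than in any empty vector library, and the other 7 genes are lower.

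Of the 3 genes of the box C/D snoRNP core, which places methyl groups on ribosomal RNA, 1 rose and 2 did not pass. NOP58, a scaffold subunit (chromosome 2, 202265716 to 202303666, plus strand, GRCh38), had 179, 187 and 188 CPM with the empty vector, in the order of the replicate numbers as throughout, and 213, 205 and 239 with SLNCR. The groups did not overlap, and SLNCR replicate 3 was highest. NOP58 rose 1.18-fold, or by 0.24 in log2 terms (edgeR adjusted p = 0.0174, SE 0.0602). Its paralogue and partner NOP56 lay at 228, 237 and 230 CPM with the empty vector and at 207, 220.2 and 194 with SLNCR, with no overlap. It stood at -0.16 (edgeR adjusted p = 0.0585, SE 0.0559) and did not pass. FBL, the methyltransferase itself, had 215, 209.7 and 199 CPM against 189, 199.9 and 178, which overlap, and stood at -0.14 (edgeR adjusted p = 0.103).

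Since these proteins work in 1 particle, the ratio of their transcripts was followed in each library. NOP58 over NOP56 was 0.788, 0.789 and 0.817 with the empty vector and 1.03, 0.933 and 1.23 with SLNCR. All SLNCR values lie above all empty vector values, with means of 0.798 ± 0.0165 and 1.06 ± 0.152 (SD, n = 3 each). This follows from the values of the 2 genes, apart in opposite directions, and is no further result. Of other ratios computed, NOP58 over FBL, PES1 over BOP1 and NPM1 over NCL were also apart. Their GC contents differ by -13, -7 and -3.9 points (first gene minus second). How often ratios of other gene pairs are apart was not computed, so no ratio here or below is a result beyond its 2 genes. POLR1B over POLR1A overlapped, with 0.5368, 0.536 and 0.5915 against 0.5852, 0.6035 and 0.6495 with SLNCR. The NOP58 transcript has 41.3% GC and that of NOP56 50.9%.

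In the PeBoW complex of PES1, BOP1 and WDR12, which processes the precursor of the large subunit RNA, 1 of 3 genes fell and 2 did not pass. BOP1 (chromosome 8, 144262102 to 144291370, minus strand) had 149, 140.1 and 129 CPM with the empty vector and 111, 124 and 97.6 with SLNCR. All SLNCR values were lower, SLNCR replicate 3 most of all. BOP1 fell to 0.796 of its level, in log2 terms -0.33 (edgeR adjusted p = 0.0159, SE 0.0776), the largest fall of the 40. PES1 had 175, 178 and 169.8 CPM against 159, 167 and 159.8, with no overlap, and stood at -0.10 (edgeR adjusted p = 0.175). WDR12 stood at 0.084 with overlapping groups (edgeR adjusted p = 0.417). The ratio of WDR12 to BOP1 was 0.422, 0.465 and 0.539 with the empty vector and 0.589, 0.566 and 0.761 with SLNCR. Here too the groups did not overlap, which is no result beyond the values of the 2 genes. Transcript GC content is 65.2% for BOP1, 58.2% for PES1 and 40.2% for WDR12.

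**Figure D2:**
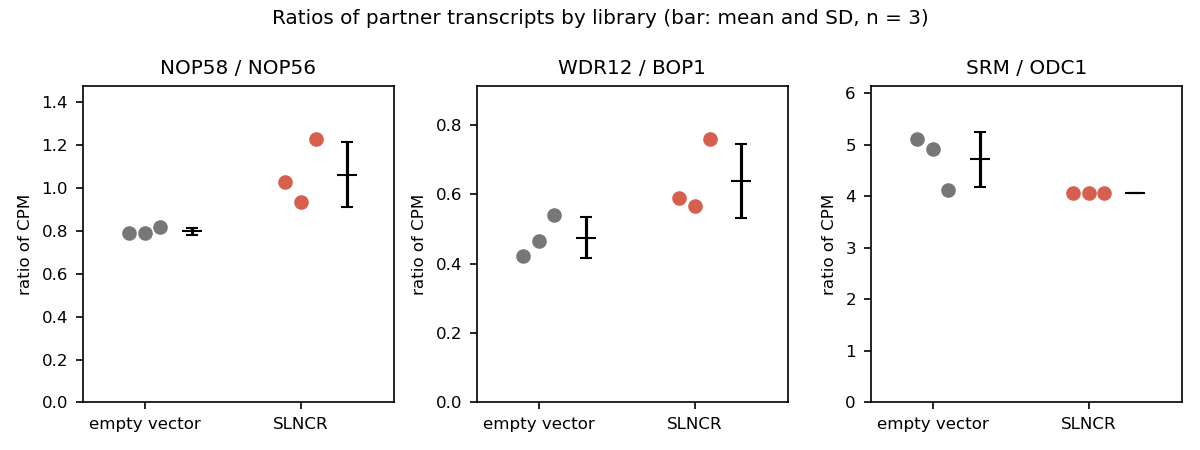
Ratio of TMM-scaled CPM (y axis, from 0) between partner transcripts in each library (points), with mean and SD (n = 3). NOP58 over NOP56 and WDR12 over BOP1 are higher in all SLNCR libraries than in any empty vector library, and SRM over ODC1 is lower in all of them. How often ratios of other gene pairs are apart was not computed.

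Of the 4 nucleolar scaffold and chaperone genes 1 fell and 3 did not pass. NPM1, which encodes nucleophosmin, a histone and assembly chaperone of the nucleolus, had the highest level per length, 539 CPM per kb of exon with the empty vector. It stood at 2017, 2032 and 2144 CPM with the empty vector and 2195, 2209 and 2371 with SLNCR. The groups did not overlap, yet at 0.13 (edgeR adjusted p = 0.0569, SE 0.0451) NPM1 did not pass. NCL, which encodes nucleolin, an RNA-binding protein of the nucleolus, was level, with 965, 993 and 976 CPM against 969.9, 999 and 976. It stood at 0.0054 in log2 terms (edgeR adjusted p = 0.926, SE 0.0424), and upper quartile scaling put it at -0.0044. TCOF1 encodes treacle, which links RNA polymerase I transcription to ribosomal RNA methylation (chromosome 5, 150357629 to 150400308, plus strand). It had 388, 353 and 364 CPM against 315, 337 and 291, with no overlap, and fell by 0.23 in log2 terms (edgeR adjusted p = 0.0185, SE 0.0578). NOLC1, a snoRNP chaperone, had 469, 469.9 and 465 CPM against 435, 447 and 434, with no overlap, and stood at -0.092 (edgeR adjusted p = 0.153).

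Genes of RNA polymerase I transcription did not pass. POLR1A, the largest subunit, had 267, 277 and 262 CPM against 249, 245 and 249, without overlap, and stood at -0.12 (edgeR adjusted p = 0.101, SE 0.0493). POLR1B, the second subunit, had 143, 148 and 155 CPM against 146, 148 and 161, which overlap, and stood at 0.026 (edgeR adjusted p = 0.771). Its sign turned without empty vector replicate 1 and without SLNCR replicate 3. UBTF, which opens ribosomal DNA for the polymerase, stood at -0.16 (edgeR adjusted p = 0.11).

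Of the 7 small subunit assembly genes 0 passed, with log2 fold changes from -0.25 to 0.15. An unadjusted p below 0.05 was found for 4 of them, beside 4455 of the 12797 genes tested. RRP12, which acts late in maturation and export, had 311, 296 and 274 CPM against 275, 285 and 282 and stood at -0.062 (edgeR adjusted p = 0.43). WDR43, an early processome subunit, had 256, 259.9 and 263 CPM with the empty vector and 274, 273 and 287 with SLNCR. Its groups did not overlap, and it stood at 0.098 (edgeR adjusted p = 0.164). UTP20, a large scaffold of the processome, stood at 0.15 (edgeR adjusted p = 0.0711). RRP9, a U3 particle protein, and BYSL, a late factor, both stood at -0.25, with edgeR adjusted p of 0.0569 and 0.0941. RCL1 and IMP4, a further U3 partner, stood at -0.18 and -0.075.

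Among 12 large subunit assembly genes 1 rose, 2 fell and 9 did not pass. DDX18, an RNA helicase (chromosome 2, 117814650 to 117832379, plus strand), had 220.4, 227 and 237 CPM against 257, 271 and 289. Each SLNCR library was above each empty vector library, and DDX18 rose 1.19-fold, or 0.25 (edgeR adjusted p = 0.0139, SE 0.0557), the largest rise of the 40. GRWD1, a chaperone of a ribosomal protein (chromosome 19, 48445773 to 48457022, plus strand), had 157, 143 and 138 CPM against 125, 136 and 118 and fell by 0.21 (edgeR adjusted p = 0.0418, SE 0.066). RRP1B (chromosome 21, 43659548 to 43696079, plus strand), a nucleolar protein that also binds chromatin, had 156, 147 and 140.4 CPM against 127, 139.9 and 119.8. The empty vector minimum lies just above the SLNCR maximum, and RRP1B fell by 0.20 (edgeR adjusted p = 0.0473, SE 0.0654).

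PA2G4, the most abundant of these 12 genes, had 578, 582 and 598 CPM against 569, 586 and 631, which overlap, and stood at 0.022 (edgeR adjusted p = 0.766). GNL3, which encodes the GTPase nucleostemin, stood at 0.16 with no overlap between groups (edgeR adjusted p = 0.0516). MRTO4 showed the widest spread of the SLNCR group for its level, with 88.9, 95.9 and 65.4 CPM against 100.4, 91.6 and 103.5, and SLNCR replicate 3 alone lay far below the rest. It stood at -0.24 (edgeR adjusted p = 0.178, SE 0.117). PPAN had the lowest level per length of the set, 3.55 CPM per kb. Its 8.28, 12.01 and 7.22 CPM overlap with 7.51, 7.50 and 7.12, empty vector replicate 2 lay above the rest, and PPAN stood at -0.31 with the largest standard error of the 40, 0.174 (edgeR adjusted p = 0.214). EXOSC5, an RNA exosome subunit, stood at -0.19, WDR74 at -0.17, NOP16 at -0.083, the methyltransferase gene NOP2 at -0.079 and URB2 at 0.033.

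In polyamine and nucleotide metabolism 1 of 4 genes passed. SRM, spermidine synthase (chromosome 1, 11054584 to 11060024, minus strand), had 349, 335 and 323 CPM with the empty vector and 292, 302 and 279.5 with SLNCR. The groups did not overlap, and SRM fell by 0.21 (edgeR adjusted p = 0.0181, SE 0.0516). ODC1 makes putrescine, the substrate of SRM, and had 68.2, 68.1 and 78.4 CPM against 71.6, 74.3 and 68.7. It stood at 5.75e-04 in log2 terms (edgeR adjusted p = 0.996, SE 0.0716). SRM over ODC1 was 5.12, 4.92 and 4.12 with the empty vector and 4.07, 4.06 and 4.07 with SLNCR. The lowest empty vector value is close to the SLNCR values, and the GC contents of the 2 transcripts differ by 12.5 points. CAD, which starts pyrimidine synthesis, had 324, 332 and 298 CPM against 285, 299.7 and 271, which overlap, and stood at -0.16 (edgeR adjusted p = 0.0608). DCTPP1, which clears modified deoxycytidine triphosphates, stood at -0.077.

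Of 4 transfer RNA and mitochondrial RNA factors, 2 fell, beside 7.67% of all tested genes called lower. PUS1, a pseudouridine synthase (chromosome 12, 131929200 to 131945896, plus strand), had 35.9, 37.8 and 33.2 CPM against 30.9, 29.1 and 28.6 and fell by 0.27 (edgeR adjusted p = 0.039, SE 0.084). TBRG4, a regulator of mitochondrial RNA (chromosome 7, 45100100 to 45112047, minus strand), had 121, 117 and 106 CPM against 104, 98.7 and 96.8 and fell by 0.20 (edgeR adjusted p = 0.0457, SE 0.0645). AIMP2, a scaffold of the aminoacyl-tRNA synthetase complex, had 93.6, 83.7 and 89.1 CPM against 83.7, 87.5 and 73.6 and stood at -0.12 (edgeR adjusted p = 0.241). TFB2M, a transcription factor of mitochondria, stood at 0.12 with no overlap between groups (edgeR adjusted p = 0.195). DESeq2 called NOP58, DDX18, TCOF1, BOP1 and SRM, and so did the fit without SLNCR replicate 3. GRWD1, RRP1B, PUS1 and TBRG4 passed in neither.

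**Figure D3:**
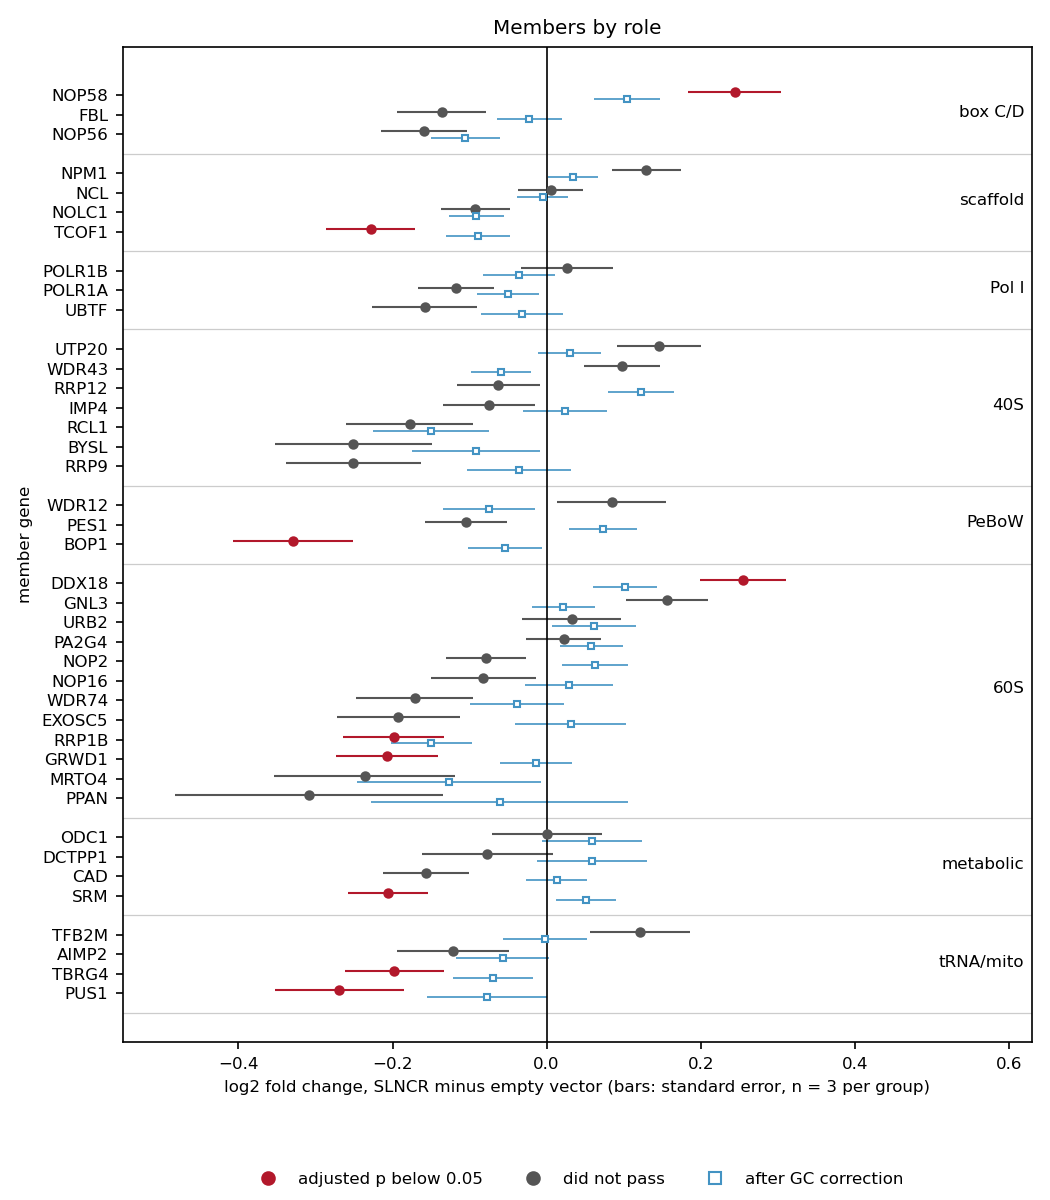
Log2 fold change of SLNCR over empty vector (x axis) for each of the 40 genes (y axis), grouped by role; circles are the comparison as counted and open squares the same after a correction for GC content, with bars of 1 standard error (n = 3 per group). As counted, 2 genes are higher and 7 lower at an adjusted p below 0.05, and after the correction values lie between -0.15 and 0.12.

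Fold changes followed the base composition of the transcripts. All 9 genes with a transcript GC content below 45% had a log2 fold change above 0 (median 0.13), and all 21 with 52% or more had one below 0 (median -0.19). The 10 genes between them were split, 4 above and 6 below 0. The limit of 52% is not among the class limits used for all genes. ODC1, just under that limit at 51.2%, stood at 5.75e-04. Across the 40 genes, which share libraries and are not independent, the log2 fold change correlated with transcript GC content at r = -0.875 (Spearman's rho = -0.801), beside r = -0.637 across 12790 tested genes. The set is richer in G and C than the rest, with a median of 53.8% against 47.9% for all tested genes. Among tested genes of 55% to 60% GC, 15.9% were called lower, and among those of 60% or more 29.7%. Of the 40 genes, 4 of 12 and 2 of 5 in these classes were lower.

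Other parts of the gene differed in how they followed the fold change. For the coding sequence alone r was -0.876 (40 genes), for the third position of codons -0.858 and for the 3' untranslated region -0.753 (39 genes). For the promoter window r was -0.046 (31 genes with a RefSeq entry), although its GC content ranged from 43.7% to 82%. These 31 genes leave out 6 of the 9 called genes, DDX18 and BOP1 among them. Over the same 31 genes r was -0.886 for the longest transcript and -0.854 for the coding sequence. SRM and GNL3 show the contrast: their promoter windows hold 82% and 79% GC, while their transcripts hold 63.7% and 41.4% and their log2 fold changes were -0.21 and 0.16.

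**Figure D4:**
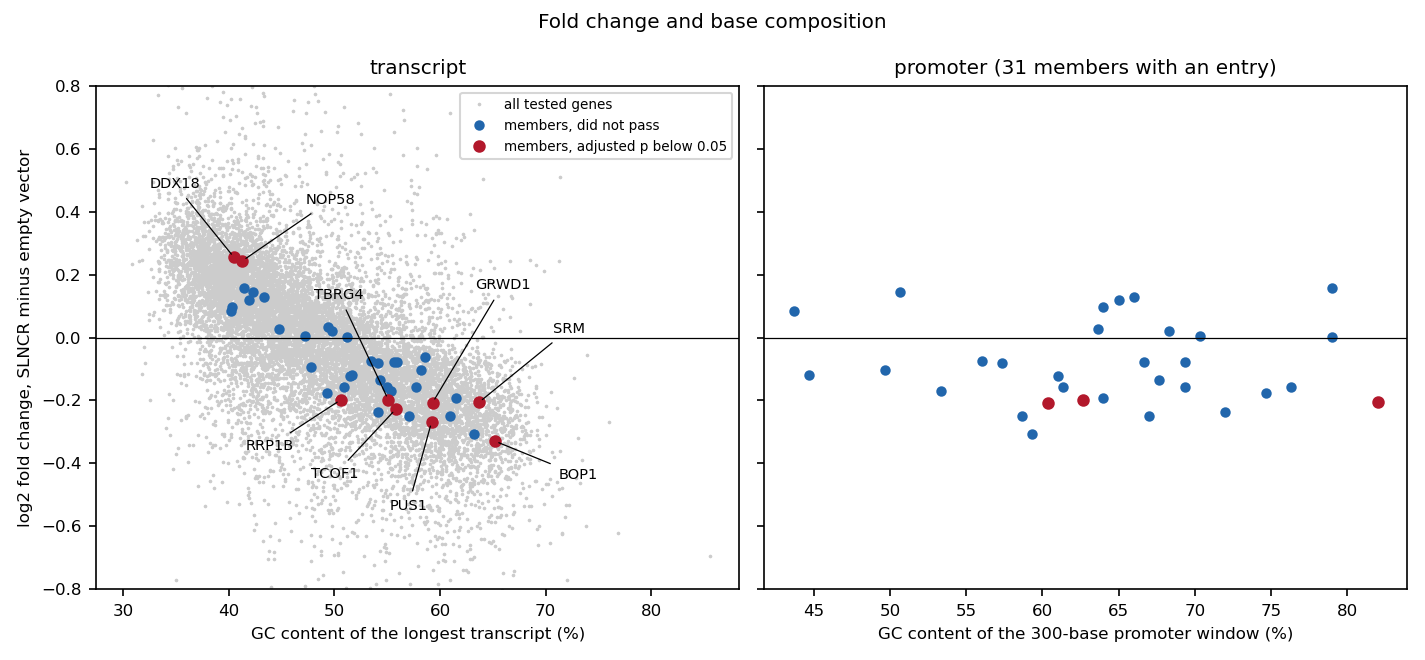
Log2 fold change of SLNCR over empty vector (y axis) against the GC content of the longest transcript (left, 40 genes over all tested genes in grey) and of the promoter window (right, 31 genes). On the left the points fall from DDX18 and NOP58 to BOP1 along the cloud of all genes, of which 79 lie beyond the plotted range of 0.8; on the right they do not fall in order.

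The slope on GC content differed between the libraries. Relative to the empty vector mean, the 40 genes changed by -0.161, -0.126 and -0.266 on the log2 scale per 10 points of GC content in SLNCR replicates 1, 2 and 3. In the empty vector libraries the slopes were 0.057, 0.021 and -0.079. These are taken against the mean of the same 3 libraries, so they balance around 0. Their signs show only how these libraries differ from each other. Slopes over all tested genes were -0.164, -0.118 and -0.252 with SLNCR. Of the 40 genes, 31 had their SLNCR value farthest from the empty vector mean in replicate 3, where the slope over all tested genes was also steepest. The like share over all tested genes was not computed.

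Once the GC trend of each library was taken out, 0 of the 40 genes were called higher and 0 lower with edgeR, as against 0.00781% of all tested genes in each direction (0.0156% in either). At an unadjusted p below 0.05 there were 7 of 40 (17.5%), beside 15.1% of all genes. Of these 3 were higher, beside 7.46% of all genes, and 4 lower, beside 7.66%. Their values were 0.12 for RRP12, -0.15 for RRP1B, -0.091 for NOLC1, 0.10 for DDX18, 0.10 for NOP58, -0.11 for NOP56 and -0.089 for TCOF1, with edgeR adjusted p from 0.177 to 0.304. The median of the 40 went from -0.11 to -0.018, and the groups were fully apart for 7 of them (17.5%), as against 20.5% of all genes. Of the genes called as counted, SRM turned from -0.21 to 0.051, and BOP1 went from -0.33 to -0.054, GRWD1 from -0.21 to -0.014, PUS1 from -0.27 to -0.077 and TBRG4 from -0.20 to -0.069. RRP1B went from -0.20 to -0.15 (edgeR adjusted p = 0.181, SE 0.0527), and its transcript, at 50.6% GC, is near the middle of the range. Without SLNCR replicate 2, where 2.28% of all genes were called higher and 2.91% lower, the corrected fit put RRP1B at -0.21 (edgeR adjusted p = 0.0214), the 1 gene of the 40 that passed in any of the corrected fits run. The sign of 14 of the 40 genes turned with the correction, and RRP12 went from -0.062 to 0.12. LINC00673, with no GC value, had edgeR adjusted p = 0.0538 in this fit, so a gene that did not pass there may still have changed.

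**Figure D5:**
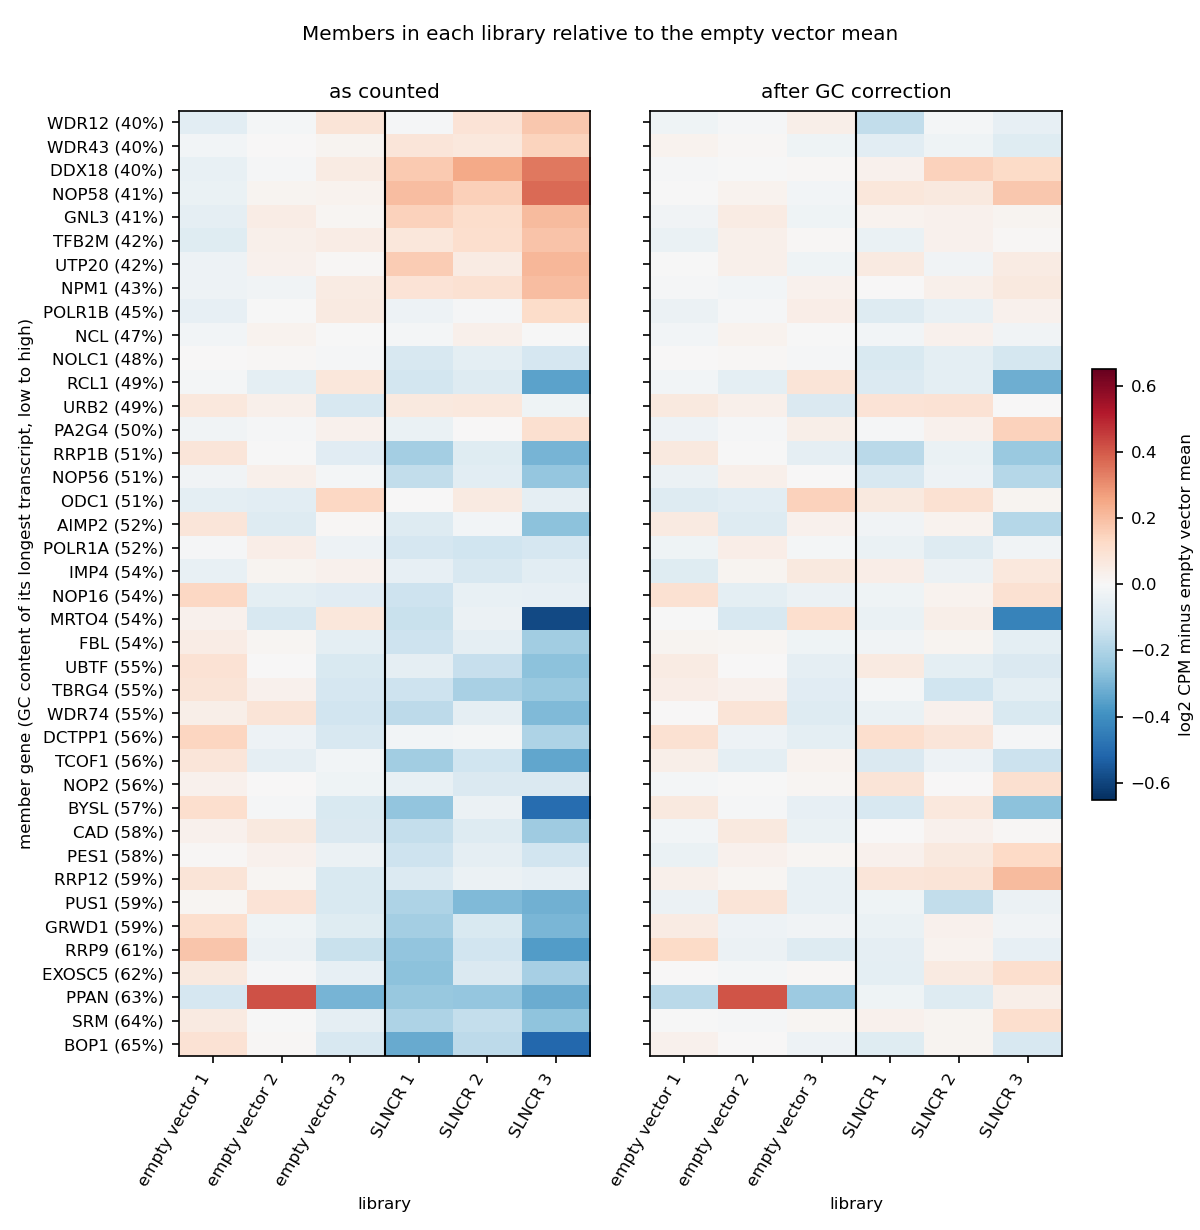
Log2 CPM relative to the empty vector mean (colour) of the 40 genes (rows, ordered by GC content of the longest transcript) in the 6 libraries (columns), as counted on the left and after the GC correction on the right. On the left the SLNCR columns pass from higher at the top to lower at the bottom, most in SLNCR replicate 3, and on the right MRTO4 in SLNCR replicate 3 and PPAN in empty vector replicate 2 stand out.

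E-boxes were searched in RefSeq promoter windows (GRCh38.p14), 250 bases before to 50 after the start, found for 31 of the 40 genes. The canonical letters CACGTG, which read the same on either strand, were in 13 of 31 windows (41.9%), in 10.1% of the windows of tested genes and in 7.43% of all 27305 windows. In 5 of the 31 (16.1%) the motif lay wholly before the start, against 8.89% of tested genes. With CACATG or CATGTG and CACGCG or CGCGTG also allowed, 18 of 31 (58.1%) held a motif, against 31.2% of tested genes. The motif and its surroundings are shown for 6 genes, chosen after the motif was found, with the motif in capitals.

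FBL: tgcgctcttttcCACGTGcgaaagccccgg
WDR43: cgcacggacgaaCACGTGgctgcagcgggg
UTP20: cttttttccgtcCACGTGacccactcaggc
PES1: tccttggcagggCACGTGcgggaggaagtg
MRTO4: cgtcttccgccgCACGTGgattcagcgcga
SRM: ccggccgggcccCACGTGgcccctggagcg

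The windows are chr19:39846356-39846385 (minus strand), chr2:28894658-28894687 (plus), chr12:101280083-101280112 (plus), chr22:30591880-30591909 (minus), chr1:19251807-19251836 (plus) and chr1:11060200-11060229 (minus). Counted from the start, the motif begins at base 7 in FBL, 4 in WDR43, 14 in PES1 and 15 in MRTO4, and at base -10 in UTP20 and -199 in SRM. The 13 genes with the motif in the window had a median log2 fold change of -0.14, and the 18 without it -0.10. Called lower were 1 (SRM) and 2 of them, beside 7.67% of all tested genes. GRWD1, 1 of the latter 2, has CACGTG in the coding start shown above. Counted from the start codon, this motif begins at the last base of the GRWD1 window, so the search did not see it. Of the 9 called genes 6 are in neither set, having no promoter entry, both risen genes among them. These sets also differed in transcript GC content, 55.6% against 51.4%. After the GC correction their medians were 0.024 and -0.023. MYC itself (chromosome 8) had 81.1, 84.2 and 82.1 CPM with the empty vector and 79.6, 76.8 and 85.5 with SLNCR, which overlap. It stood at -0.034 (edgeR adjusted p = 0.73, SE 0.0643) and at 0.074 after the GC correction. MAX stood at 0.13 (edgeR adjusted p = 0.189, SE 0.0669), with 57.2, 58.6 and 57.2 CPM against 65.3, 60.4 and 63.0, which do not overlap. With the GC correction MAX stood at 0.19 (edgeR adjusted p = 0.152).

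Several genes of the set carry snoRNA genes in their introns, whose products guide ribosomal RNA modification. GENCODE places snoRNA genes within 9 of the 40, NOP56, NOP58, NCL, WDR43, PPAN, GNL3, ODC1, TBRG4 and AIMP2. The 9 hosts had a median log2 fold change of 6.00e-04 and the other 31 genes -0.12, with a median GC content of 50.9% and 54.3%. The hosted snoRNAs were counted at low levels. SNORD110 in NOP56 had 23, 26 and 22 counts with the empty vector and 23, 16 and 16 with SLNCR (edgeR adjusted p = 0.233). SNORD20 in NCL had 19, 16 and 18 against 17, 24 and 31 (edgeR adjusted p = 0.405). Of 20 hosted snoRNA genes counted, 6 passed the low-count filter and 0 of these the test. In raw counts, not scaled for library size, the groups were fully apart for 4 of the 20. The 38.9% of all tested genes that were fully apart were counted on scaled CPM, so the shares are not alike. SNORD69 in GNL3 had 6, 10 and 11 counts against 12, 15 and 16 (edgeR adjusted p = 0.268). The other 3 were below the filter and not tested: SNORA80B in ODC1 with 0, 1 and 1 against 8, 4 and 4, SNORD19 in GNL3 with 5, 7 and 7 against 3, 3 and 3, and SNORD11 in NOP58 with 8, 8 and 9 against 1, 7 and 1.

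Counts of some genes are uncertain. Exons of 11 of the 40 overlap exons of other counted genes, among them GRWD1 with KCNJ14, PES1 with TCN2, WDR12 with CARF and AIMP2 with EIF2AK1. Overlap with genes outside the counted rows was not looked for. The strand setting is not given in the sources used here. GENCODE names pseudogenes of 7 of the 40, with 45 for NPM1, and reads may be shared with these. Among the 24 genes free of both, 1 rose and 5 fell, beside 8.84% and 7.67% of all tested genes. Their median log2 fold change was -0.15, and -0.037 after the GC correction.

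Other genes of the same pathways, listed by role, gave 26 higher and 16 lower of 159 tested, beside 8.84% and 7.67% of all tested genes. The same shares stand beside the counts of each list below. Of 45 further small subunit factors 11 rose and 2 fell, led by KRR1 at 0.34, UTP11 at 0.26 and UTP23 at 0.35, with a median GC content of 44.7%. Of 48 further large subunit factors 7 rose and 8 fell, among them RSL24D1 at 0.25, WDR18 at -0.32 and ZNF593 at -0.40. For RNA polymerase I 1 of 12 passed, the subunit gene POLR1F at 0.29, and TAF1C and TAF1D stood at -0.23 and 0.17. Among 14 H/ACA and snoRNP assembly genes, RPAP3 rose by 0.31 and RUVBL2 and PIH1D1 fell by 0.25 and 0.28. Of 12 exosome genes MPHOSPH6 and DIS3 rose by 0.39 and 0.27 and EXOSC4 fell by 0.46. In polyamine and nucleotide synthesis 4 of 18 rose, with PPAT at 0.32 and AMD1 at 0.31, and IMPDH1 fell by 0.30. Of 10 genes of MYC and its partner proteins, MXD3 and MLXIP fell by 0.33 and 0.22. Across these 159 genes the log2 fold change correlated with transcript GC content at r = -0.838. After the GC correction 0 passed in either direction with edgeR, beside 0.00781% of all tested genes in each. In that fit 24 had an unadjusted p below 0.05, beside 15.1% of all tested genes.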

How the data were processed

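RNA of 6 A375 libraries was sequenced after ribosomal RNA was depleted. The table the authors deposited holds raw counts of reads for each gene, judged from its whole numbers and from column totals that differ. GRCh38, cutadapt, STAR and DESeq2 1.24.07 are named, per the submitters' processing notes, without role or order, and the sources used here do not give the read counter, annotation or strand setting. The 1857 rows that name no gene (2.15% to 2.59% of counts) and 63 rows in 22 runs of identical counts were left out. Symbols, coordinates and the GC content of the longest transcript came from GENCODE release 29.

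The groups were compared with edgeR 4.0.16 (R 4.3.3), using TMM factors, the default filterByExpr filter and the robust quasi-likelihood F-test, two-sided, with p-values adjusted by Benjamini-Hochberg across all 12797 tested genes. The threshold was 0.05, and log2 CPM used a prior count of 2. The GC correction took from each library a loess curve (span 0.5, degree 2) of log2 deviation against GC content, entered as offsets. Further fits used DESeq2 1.42.0, limma 3.58.1 (voom), other scalings and filters, a replicate block, and each library left out in turn. The scripts were tested on simulated data.

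The genes and lists were chosen with earlier results of these data known. Values by library are given for each gene that passed and for the 2 most abundant of each role; genes that the GC correction turns are named, as are up to 3 genes of smallest p per further list, with MYC and MAX. Values by library of FBL, NOLC1, MRTO4, PPAN, ODC1 and the snoRNAs were added after they were seen.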

Additional observations from a re-analysis of the deposited data

How the results depend on the processing

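Under the other scalings, limma-voom and the stricter filter, the numbers of the 40 genes called stayed within 1.5 times of 2 higher and 7 lower. With no filter 5 were higher, beside 9.11% of all genes, and DESeq2 called 3 lower, beside 5.63%. At an adjusted p below 0.1, 5 were higher and 12 lower, beside 14.4% and 14.1% (3642) of all genes. The GC correction left 0 higher and 0 lower, alone or with the replicate block, with medians of -0.018 and -0.019, 7 genes without overlap, and 2 or, with the block, 407 of all genes passing. Same-numbered libraries correlated at 0.041, 0.022 and 0.195 in their deviations from group means. Libraries of different numbers correlated at -0.17 to 0.143, the highest being empty vector replicate 1 with SLNCR replicate 2. The labels name no batch, and whether same-numbered libraries share one was not tested. With the replicate block 5 were higher and 14 lower, beside 13.8% and 13.7% (3523) of all genes. Leaving out 1 library, with or without the GC correction, gave 0 to 5 higher, 0 to 13 lower, medians from -0.12 to 9.44e-04, and 0 to 3366 of all genes. The cause was not tested. The E-box count went from 13 (41.9%, against 10.1% of tested genes) to 5 (16.1%, against 8.89%) with the bases before the start alone.

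Log2 fold changes turned sign with the GC correction, also with the replicate block (both values where they differ), for NCL (-0.0053 and -0.0054), POLR1B (-0.036), WDR43 (-0.059), IMP4 (0.024 and 0.025), RRP12 (0.12), PES1 (0.073), WDR12 (-0.075), NOP2 (0.063), NOP16 (0.029), EXOSC5 (0.031), SRM (0.051), CAD (0.013), DCTPP1 (0.059), TFB2M (-0.0021 and -0.0022), TAF1C (0.0033 and 0.0042), TAF1D (-0.052 and -0.056) and MYC (0.074). Upper quartile scaling put NCL at -0.0044 and ODC1 at -0.0090, and the stricter filter ODC1 at -0.0022. With 1 library left out, with or without that correction, these log2 fold changes turned sign in at least 1 fit. The first of them ranged as follows: NCL -0.022 to 0.016, POLR1B -0.067 to 0.058, WDR43 -0.073 to 0.11, IMP4 -0.099 to 0.056, RRP12 -0.11 to 0.14, PES1 -0.13 to 0.095, WDR12 -0.11 to 0.13, NOP2 -0.095 to 0.095, NOP16 -0.12 to 0.083, EXOSC5 -0.25 to 0.081, SRM -0.23 to 0.067, CAD -0.20 to 0.045 and DCTPP1 -0.13 to 0.11. The others ranged as follows: TFB2M -0.024 to 0.15, ODC1 -0.034 to 0.14, RRP9 -0.32 to 0.033, PPAN -0.45 to 0.17, WDR74 -0.23 to 0.0035, GRWD1 -0.26 to 0.016, URB2 -0.015 to 0.094, PA2G4 -0.020 to 0.089, TAF1C -0.28 to 0.086, TAF1D -0.13 to 0.20, MYC -0.075 to 0.13, WDR18 -0.38 to 0.035 and RSL24D1 -0.019 to 0.28.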
